A study of Mus musculus with 2 samples.

Results

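A set of 282 mouse protein-coding genes combined CpG-rich sequence at the start of the gene with no DNase-seq peak there in kidney. The members were selected on the deposited peaks and on the genome sequence. They are GENCODE M21 protein-coding genes whose CpG observed/expected ratio within 500 bp of the 5′ end was 0.6 or more and which had no peak of the longer peak list within 500 bp of any transcription start site (TSS) in either library. The ratio compares the CpG dinucleotides present with the number that the C and G content alone would give. Of 21938 protein-coding genes, 10078 were CpG-rich by this rule. Of these, 282 were closed in both libraries (2.8% of the CpG-rich genes), 9633 were open in both, 56 had a peak in replicate 1 only and 107 had a peak in replicate 2 only. The count of closed genes was 488 with the shorter peak list, 140 at a CpG ratio of 0.7 or more and 455 at 0.5 or more. The absence of a promoter peak and the CpG ratio at the 5′ end chose the genes and are therefore descriptions.

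DNase-seq maps where the enzyme DNase I cuts chromatin, and a peak marks a stretch that was cut often. Both libraries came from whole kidney of male B6CASTF1/J mice, an F1 cross supplied by The Jackson Laboratory, at an age of 25 days. They form 1 group of 2 biological replicates with no treatment or genotype contrast. One donor code is listed for both, with a separate biosample and mouse number for each, so they were treated as 2 animals. A closed promoter here means only that no peak was listed. Kidney is a mixture of cell types, so fewer open cells cannot be told apart from weaker opening in each cell. In repeated sequence, neither can be told apart from reads that could not be placed.

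Most mammalian CpG dinucleotides are methylated and slowly lost by mutation, and CpG islands are stretches that stay unmethylated and keep them. CpG island promoters are usually open in most tissues whether or not the gene is strongly transcribed. Known exceptions are islands of developmental regulators, which Polycomb complexes can hold silent, and promoters of germ cell genes, which are silenced in somatic cells by DNA methylation and by repressors that bind an E-box and E2F sites. Neither Polycomb marks nor methylation were measured in these libraries.

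Promoter sequences illustrate what the closed genes look like beside open ones. Each line below gives the 250 bases before the annotated 5′ end in the direction of transcription, from the RefSeq copy of GRCm38.p6 (mm10), with CpG dinucleotides in capitals. The closed gene with the highest CpG ratio and unique sequence was taken from each of the transcription factor, germ cell and neuronal membrane protein lists, and beside it stands the open gene of the same lists with the nearest ratio. Barhl2, a homeobox factor of neurons and retina, was closed with a ratio of 1.07 (chr5:106458167-106458416, minus strand). Tcf15, a basic helix-loop-helix factor of the somites, was open with a ratio of 1.06 and a peak of height 4.82 in replicate 1 and 4.88 in replicate 2 (chr2:152143311-152143560, plus strand).
Barhl2: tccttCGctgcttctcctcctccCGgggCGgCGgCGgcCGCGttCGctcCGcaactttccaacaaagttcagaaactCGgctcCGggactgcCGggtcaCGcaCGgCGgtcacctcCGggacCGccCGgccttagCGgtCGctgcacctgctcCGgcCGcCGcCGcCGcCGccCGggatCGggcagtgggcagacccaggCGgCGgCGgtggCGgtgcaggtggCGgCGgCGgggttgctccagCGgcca
Tcf15: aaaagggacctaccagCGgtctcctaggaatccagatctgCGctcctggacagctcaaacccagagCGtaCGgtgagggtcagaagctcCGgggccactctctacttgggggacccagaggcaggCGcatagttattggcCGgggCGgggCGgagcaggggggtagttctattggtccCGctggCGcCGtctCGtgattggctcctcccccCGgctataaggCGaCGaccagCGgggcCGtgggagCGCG
These stretches held 36 CpG in Barhl2 and 20 in Tcf15, so the closed promoter was the denser one. Fkbp6, a co-chaperone of the piRNA pathway, was closed with a ratio of 0.765 (chr5:135350045-135350294, minus strand). Syce2, a component of the synaptonemal complex, was open with a ratio of 0.753 and heights of 6.89 and 6.45 (chr8:84871861-84872110, plus strand).
Fkbp6: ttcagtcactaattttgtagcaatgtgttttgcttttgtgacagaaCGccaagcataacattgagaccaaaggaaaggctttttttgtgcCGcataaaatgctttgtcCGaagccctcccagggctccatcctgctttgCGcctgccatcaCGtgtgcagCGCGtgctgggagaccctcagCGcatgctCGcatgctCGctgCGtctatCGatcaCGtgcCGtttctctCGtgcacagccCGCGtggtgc
Syce2: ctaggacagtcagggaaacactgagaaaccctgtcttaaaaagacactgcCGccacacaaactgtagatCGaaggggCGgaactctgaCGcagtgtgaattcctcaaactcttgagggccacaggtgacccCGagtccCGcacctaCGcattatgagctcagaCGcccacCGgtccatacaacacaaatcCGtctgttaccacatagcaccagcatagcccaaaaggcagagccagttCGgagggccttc
Fkbp6 held 17 CpG in this stretch and Syce2 held 11. Cacna1i, a T-type calcium channel of neurons, was closed with a ratio of 0.951 (chr15:80286988-80287237, plus strand). Kcng3, a modulatory potassium channel subunit, was open with a ratio of 0.957 and low heights of 0.624 and 0.507 (chr17:83631896-83632145, minus strand).
Cacna1i: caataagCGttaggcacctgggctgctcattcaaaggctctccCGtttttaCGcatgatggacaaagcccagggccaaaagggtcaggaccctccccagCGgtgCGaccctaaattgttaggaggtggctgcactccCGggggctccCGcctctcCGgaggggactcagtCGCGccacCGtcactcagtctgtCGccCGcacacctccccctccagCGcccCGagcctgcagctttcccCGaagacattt
Kcng3: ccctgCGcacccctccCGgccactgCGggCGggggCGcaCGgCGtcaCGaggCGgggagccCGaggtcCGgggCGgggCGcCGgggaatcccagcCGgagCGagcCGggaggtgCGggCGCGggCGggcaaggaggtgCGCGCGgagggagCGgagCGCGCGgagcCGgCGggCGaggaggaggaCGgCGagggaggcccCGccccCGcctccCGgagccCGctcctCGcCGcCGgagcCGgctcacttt
Cacna1i held 16 CpG and Kcng3 held 41, and in this pair the open promoter was denser. In 2 of the 3 pairs the closed promoter held more CpG. These closed genes were picked for the highest ratios. Over all members the median count of CpG within 500 bp went the other way, with 62 in closed and 72 in open genes.

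The libraries matched their label. Of 16 kidney marker genes 14 had a promoter peak in both libraries and 0 were closed, whereas 0 of 6 blood markers, 0 of 3 liver markers and 0 of 4 germ cell markers were open in both. A single marker was open among the 4 of each of adrenal (Star), neuron (Tubb3) and muscle (Actn2). Replicate 1 had 125393 peaks in the longer list and replicate 2 had 177001.

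Closed genes lay toward the lower end of the CpG-rich range. The closed share was 5.56% at ratios from 0.6 to 0.7 (142 of 2555 genes), 2.49% from 0.7 to 0.8, 1.34% from 0.8 to 0.9, 1.78% from 0.9 to 1 and 0.743% above that (3 of 404). At the CpG limit, Rxfp2, Tdgf1 and Mov10l1 were just inside at 0.601, 0.602 and 0.602, and Oxct2a, Gm13290 and Ece2 were just outside at 0.598. At the distance limit, the members nearest to a peak were Evx1 at 509 bp, Gm36079 at 533 bp and Fgfr1op at 539 bp. The genes kept out by the lowest peaks were Gm3252, Gm3512 and Gm3739, with heights of 0.0845, 0.0894 and 0.104 in replicate 2 alone. Genes with a peak in 1 library alone were open only weakly, with a median height of 0.397 where the peak was in replicate 1 and 0.348 where it was in replicate 2, beside 9.79 and 9.14 in genes open in both.

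The closed promoters were almost blank in the other deposited tracks. These come from the same reads as the peaks that chose the genes, so they are no independent support. A base with a false discovery rate under 0.05 lay within 500 bp of a TSS of 16 closed genes in replicate 1 and of 13 in replicate 2. Only 3 of the 282 had such a base in both, and the lowest rates were 0.0211 and 0.0260. Footprints, the protected gaps that bound proteins leave inside a cut region, were counted within 500 bp of the 5′ end alone. No closed promoter held one there in either library. All 9633 open genes held listed bases in both libraries, with medians of 847 and 907 bases, and a mean of 5.84 and 8.47 footprints.

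Repeated sequence moved with the closed state. In 84 of the 282 closed genes (29.8%, 95% exact binomial interval 24.5 to 35.5%), under 90% of the 36-base words around the 5′ end occurred once in the genome, against 527 of 9633 open genes (5.47%). In 36 closed genes no word was unique, against 1 open gene. Reads cannot be placed in such sequence without a choice, and no source used here states how reads with several positions were treated. The part of this in the closed calls was not tested, and the main counts are given with and without these genes. Without them 198 genes were closed (2.09% of the CpG-rich genes with unique sequence). The repeated members were mainly predicted gene models, of which 37 of 46 closed ones were repeated, histone genes (6 of 7) and clustered protocadherins of the alpha group (9 of 9). Histone genes were mostly repeated whatever their state: 7 of the 64 CpG-rich ones had unique sequence, and 55 of the 64 were open. Unique sequence was found in 286 of 376 CpG-rich gene models and 8 of 22 clustered protocadherins. The longest run of neighbouring closed CpG-rich genes held 8 genes at the Pcdha cluster on chromosome 18. The next held 6 genes from Plac9a to Tmem254b and 5 genes from Slc25a37 to Loxl2, both on chromosome 14, followed by 4 gene models on chromosome 14 and several runs of 3. In all 24 runs of neighbouring members held 68 genes, and 5 of the runs had no repeated member. Those 5 were Tfap2d with Tfap2b, Prtn3 with Plppr3, Hoxa13 with Evx1, Sox3 with Slitrk4, and Gm4779 with 8030474K03Rik. They are named because they are few and were picked after their values were seen.

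Of the 282 members, 153 belonged to a named gene list. Developmental transcription factors contributed 41 genes, neuronal membrane proteins 27, germ cell genes 16, secreted signals 4, other families 62 and lineage lists alone 2 (Tfap2b and Fezf1). A further 129 belonged to no list. Cell maintenance genes contributed 1 member, Rpl10l, a ribosomal protein copy expressed in testis whose sequence is partly repeated.

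**Figure D1:**
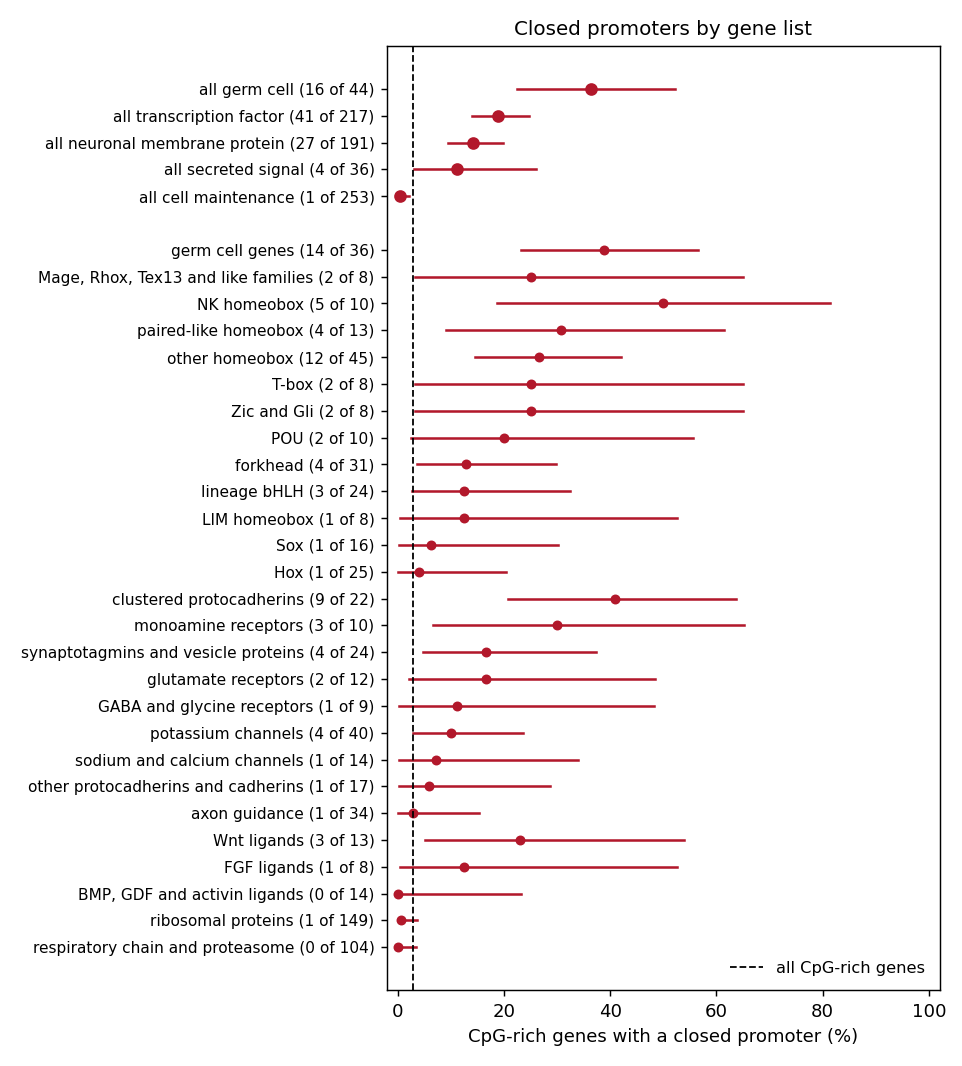
Share of CpG-rich genes that were closed (x axis, %) in 5 classes of gene lists (upper rows) and in the 27 lists of those classes with at least 8 CpG-rich members (lower rows), with 95% exact binomial intervals that cover counting error only. The dashed line marks the 2.8% of all CpG-rich genes, and the classes of germ cell genes, transcription factors and neuronal membrane proteins lie to the right of it while cell maintenance genes lie to the left.

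Of 217 CpG-rich developmental transcription factors, 41 were closed (18.9%, interval 13.9 to 24.7%), beside 2.8% of all CpG-rich genes. A further 143 were open in both libraries, and 40 of the 41 closed ones had unique sequence. The count of 41 was 67 when replicate 2 was left out, 74 with the shorter peak list and 22 at a CpG ratio of 0.7 or more. Each family holds few genes, and the intervals of the family shares overlap widely. In the NK group, homeobox factors of forebrain, foregut and other organs, 5 of 10 were closed: Nkx1-1, Nkx3-2, Nkx2-1, Nkx1-2 and Nkx2-2. Nkx6-1 and Nkx6-2 were open but low, with heights of 2.11 and 1.87 for Nkx6-1 in replicates 1 and 2, and 1.15 and 0.924 for Nkx6-2.

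Paired-like factors were closed in 4 of 13 cases. Among them were Otp of the hypothalamus, Phox2a of autonomic neurons and Pitx1 of hindlimb and pituitary. The remaining homeobox genes were closed in 12 of 45 cases, with Barhl2, Hmx3, Barx1 and Mnx1 at the highest CpG ratios (1.07, 0.908, 0.882 and 0.796). The Pax group held both states. Pax3 of muscle precursors and neural crest and Pax5 of B cells were closed, whereas Pax2, a regulator of nephron formation, was open with heights of 3.68 and 2.93 and had 17 and 32 distal peaks within 50 kb.

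Among the smaller homeobox groups, 2 of 10 POU, 1 of 5 sine oculis type, 1 of 6 Iroquois and 1 of 8 LIM genes were closed. The Hox genes had the lowest share of the homeobox groups, with 1 of 25 closed (4%, interval 0.101 to 20.4%, near the 2.8% of all CpG-rich genes). That gene was Hoxa13, which patterns the distal limb and the urogenital outlet. Hoxa7 was open with heights of 14.8 and 12.6, and Hoxa4 with 13.6 and 9.14. Only Sox3 was closed among 16 Sox genes, and 0 of 2 GATA genes were.

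Closed members were also found in families outside the homeobox groups. Forkhead genes were closed in 4 of 31 cases, namely Foxl1 of the gut mesenchyme, Foxb1, Foxn4 and Foxr1. Lineage basic helix-loop-helix genes were closed in 3 of 24, namely Bhlhe23, Helt and the pancreatic regulator Ptf1a. In the T-box group 2 of 8 were closed (25%, interval 3.19 to 65.1%), Tbx21 of T helper cells and T of the early mesoderm. Zic1 and Zic4, a divergent pair of hindbrain regulators, were the closed members among 8 genes of the Zic and Gli group, of which Zic1 had partly repeated sequence.

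Closed genes were also counted on lists grouped by the organ that the genes specify. Of 23 CpG-rich genes on the kidney lineage list 1 was closed (4.35%, interval 0.110 to 21.9%, near the 2.8% of all CpG-rich genes), Tfap2b, known for its role in the distal part of the nephron, and 20 were open in both libraries. Its neighbour Tfap2d was closed as well, 105.9 kb away. On the gut, liver and pancreas list 5 of 10 were closed, among them Cdx1, Mnx1, Ptf1a and Nkx2-1. On the eye and pituitary list 4 of 9 were closed, on the nervous system list 5 of 22, and on the blood list 2 of 10. The limb and skeleton list had 1 of 14 closed (7.14%), about as low as the kidney list, and the neural crest and gonad lists had 1 of 4 each. The muscle and heart list had 1 of 7 closed, Pax3, and 0 of 7 open in both libraries, since the other 6 had a peak in a single library. A gene can stand on more than 1 of these lists, and with so few genes a list the shares are imprecise.

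Among secreted signals 4 of 36 CpG-rich genes were closed (11.1%, interval 3.11 to 26.1%). They were Wnt3a, Wnt6 and Wnt3 among 13 Wnt ligands, and Fgf8 among 8 FGF ligands. Of 14 ligands of the BMP, GDF and activin group 0 were closed, which allows up to 23.2%. The closed Wnt genes sat among accessible elements, with 12 and 12 distal peaks within 50 kb of Wnt3a, 14 and 17 near Wnt6, and 13 and 16 near Wnt3 in replicates 1 and 2. Open Wnt genes lie within 50 kb of Wnt3a (Wnt9a, with 12 and 12) and of Wnt3 (Wnt9b, with 17 and 19). Their windows overlap, so these peaks cannot be assigned to the closed gene.

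Neuronal membrane proteins were closed in 27 of 191 cases (14.1%, interval 9.53 to 19.9%), and in 18 of 177 with unique sequence (10.2%). Of the 27, 9 were clustered protocadherins, all with repeated sequence. The others were spread over receptors, channels and vesicle proteins. Closed members included the glutamate receptors Grik3 and Grin2c, the dopamine receptor Drd5, the serotonin receptors Htr1f and Htr2c, the channels Kcnk9, Hcn2 and Kcnk15, and the transmitter loaders Slc18a3 (acetylcholine) and Slc32a1 (GABA and glycine). Most genes of these families were open all the same: 32 of 40 CpG-rich potassium channel genes and 32 of 34 axon guidance genes, where the receptor Epha8 was the closed member. Kcnab2, an auxiliary channel subunit, had heights of 22.6 and 28.0.

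Genes that every cell needs were almost never closed. Of 253 genes for ribosomal proteins, the respiratory chain and the proteasome 1 was closed (0.395%, interval 0.010 to 2.18%). Of the larger gene families, zinc finger genes of the Zfp series were closed in 3 of 200 cases (1.5%, interval 0.310 to 4.32%), 2 of them with repeated sequence. Solute carriers were closed in 6 of 168 cases (3.57%, interval 1.32 to 7.61%). Both intervals contain the 2.8% of all CpG-rich genes.

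Germ cell genes had the highest closed share of the 5 classes. Of 44 CpG-rich genes, 16 were closed (36.4%, interval 22.4 to 52.2%), all with unique sequence, and 25 were open in both libraries. The list of meiosis, piRNA and identity genes gave 14 of 36, and 3 at a CpG ratio of 0.7 or more. The list of Mage, Rhox, Tex13 and like families gave 2 of 8. Of these 8 genes the open Mageb3 lies on chromosome 2 and the others on the X chromosome, and some Mage genes are also expressed outside the germ line. A few genes, none of them closed, were taken out of this second list after values were seen. That choice can raise the closed share of the list and of the class and lower the count of open genes, but not the reverse. The closed group spanned several steps of germ cell life. It held Ddx4, the germ cell RNA helicase, and Dmrt1, a testis regulator. It held the piRNA pathway genes Mael, Mov10l1, Tdrd1, Asz1 and Fkbp6. It held the meiotic genes Hormad1, Sycp2, Tex12, Mei1 and Rnf212, the spermatogenic genes Taf7l and Slc25a31, and on the X chromosome Rhox13 and Tex13c2. Other genes of the list were highly accessible. Hspa2, a heat shock protein of spermatocytes, had heights of 21.7 and 31.3, and Prdm9, which places meiotic recombination, had 24.3 and 22.3.

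The closed germ cell promoters shared a sequence word that the rule did not use. The palindromic E-box CACGTG lay between 250 bp before and 50 bp after the 5′ end in 10 of 16 (62.5%, interval 35.4 to 84.8%), against 5 of 25 open germ cell genes (20%, interval 6.83 to 40.7%). It was found in 11.7% of all 282 closed genes, 11.1% of the 9633 open ones and 7.75% of all protein-coding promoters of this length. The word lay 11 to 221 bp before the 5′ end in these 10. The stretches of 30 bases around the copy nearest the 5′ end are shown because they carry this observation, in the direction of transcription with the word in capitals, and Fkbp6 and Hormad1 have a second copy in the same promoter.
Fkbp6: gcgtctatcgatCACGTGccgtttctctcg
Hormad1: atgcgcactgcgCACGTGctgaccggagcg
Mael: taccaggcctacCACGTGacaatccccgcc
Mei1: acaccaggcactCACGTGgtgtacatacat
Mov10l1: tccatgctccttCACGTGctaaccgccaac
Rnf212: tcgcgcgagtctCACGTGggtcctcggtca
Slc25a31: cgcaactggaaaCACGTGttatggtcacat
Taf7l: accctcttatacCACGTGacagaactcgcc
Tdrd1: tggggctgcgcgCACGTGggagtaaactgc
Tex12: ccgcgagactgtCACGTGgctcgcgcgctg
The stretches for Fkbp6 (chr5:135350064-135350093, minus strand), Hormad1 (chr3:95559645-95559674, plus strand) and Tdrd1 (chr19:56826186-56826215, plus strand) hold the word upstream of the 5′ end, as do those of the other 7 genes. Bases beside the word differ from gene to gene. A second word, GCGCATGC of the NRF1 type, was present in 6 of 16 closed germ cell promoters (37.5%, interval 15.2 to 64.6%), against 2 of 25 open ones (8%, interval 0.984 to 26.0%) and 3.71% of all protein-coding promoters. The E2F type word TTCCCGC was present in 5 of 16 closed germ cell promoters and 6 of 25 open ones, so their intervals overlap widely. For the E-box and NRF1 words the closed and open germ cell intervals overlap as well, over a narrower range. A match describes the letters and not binding.

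**Figure D2:**
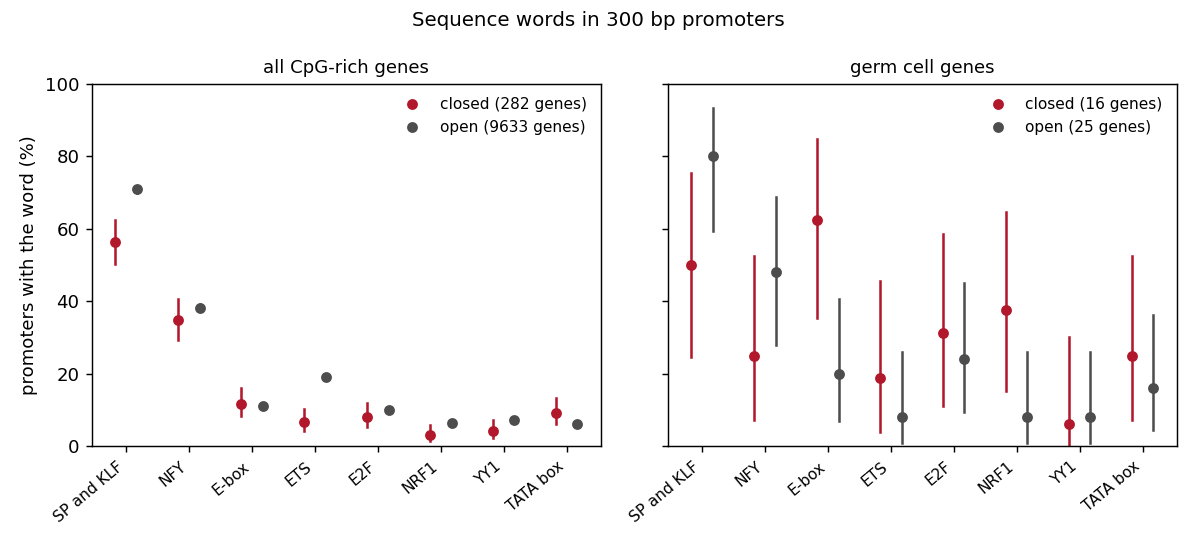
Share of promoters (y axis, %) with each sequence word on either strand from 250 bp before to 50 bp after the 5′ end, for closed genes (red) and open genes (grey), among all CpG-rich genes (left) and germ cell genes (right). Bars are 95% exact binomial intervals for counting error. On the left the ETS word is less frequent in closed genes (6.74% against 19.13%), and on the right the E-box word is more frequent in closed genes (62.5% against 20%).

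Over all members the ETS word CCGGAAG, common in broadly active promoters, was less frequent in closed genes. It was in 19 of 282 closed promoters (6.74%, interval 4.10 to 10.3%), against 1843 of 9633 open ones (19.13%) and 10.8% of all protein-coding promoters. Open genes weighted to the CpG classes of the closed ones gave 18.7%, and closed genes with unique sequence gave 6.06% (interval 3.17 to 10.3%). The gene classes did not all go this way. None of the 41 closed transcription factors and none of the 27 closed neuronal genes held the word, which allows up to 8.60% and 12.8%, but their open counterparts also held it rarely, in 4.90% of 143 and 2.72% of 147 genes. In germ cell genes it was in 3 of 16 closed promoters (18.8%, interval 4.05 to 45.6%) and 2 of 25 open ones (8%).

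For most of the other words the open value lay inside the closed genes' interval in at least 1 of the comparisons. In percentage points the SP and KLF word differed more than the ETS word, but less at matched CpG classes. The SP and KLF word GGGCGG was in 56.4% of closed promoters (interval 50.4 to 62.3%), against 70.9% of open ones, or 67.6% at matched CpG classes. Among closed genes with unique sequence it was in 62.1% (interval 55.0 to 68.9%), which contains the matched value. Of the classes, neuronal genes had it in 40.7% of closed promoters (interval 22.4 to 61.2%) against 74.1% of open ones. The 27 closed neuronal genes include the 9 protocadherins with repeated sequence. Germ cell genes had it in 8 of 16 closed and 20 of 25 open promoters, and transcription factors in 68.3% and 65.7%. The NRF1 word was in 3.19% of closed promoters (interval 1.47 to 5.97%), against 6.27% of open ones, or 5.73% at matched CpG classes, and in 4.55% of closed genes with unique sequence (interval 2.10 to 8.45%). The YY1 word AAGATGG was in 4.26% (interval 2.22 to 7.32%), against 7.24%, which lies inside that interval. The cyclic AMP response word TGACGTCA was in 1.42% (interval 0.388 to 3.59%), against 4.01%, and in 1.52% of closed genes with unique sequence (interval 0.314 to 4.36%), which contains the open value. The CCAAT word of NFY was in 34.8% against 38.2%, and the E2F word in 8.16% against 10.01%, with the open value inside the closed genes' interval for both. The TATAAA word was in 9.22% of closed promoters (interval 6.11 to 13.2%) against 6.17% of open ones, and in 7.07% of closed genes with unique sequence (interval 3.92 to 11.6%). Both of its intervals contain the open value. The neuronal silencer element bound by REST was in 0 of 282 closed promoters and 0.0623% of open ones, too few to compare. Of CpG-rich promoters with the ETS, NRF1 or E-box word, 3.21%, 1.29% and 2.76% had a copy that overlapped another of the words searched.

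Beyond the stretch used to choose the genes, the CpG content of closed and open genes differed little. Between 500 and 2000 bp from the 5′ end the median CpG ratio was 0.356 in closed genes and 0.323 in open genes. The difference of 0.034 was 0.011 with a promoter window of 1 kb, 0.010 with basic TSSs alone and 8.19e-05 at a CpG ratio of 0.5 or more. By position the sign changed. At 625 bp the closed median was the lower one, with 0.299 against 0.372 upstream and 0.564 against 0.585 downstream, and at 1375 bp downstream it was the higher one, with 0.330 against 0.253. With unique sequence alone the ratio between 500 and 2000 bp was 0.367 in closed genes and 0.323 in open genes. The classes went different ways: in closed transcription factors it was 0.494 against 0.532 in open ones, in closed germ cell genes 0.247 against 0.342, and in closed neuronal genes 0.483 against 0.366. Median counts of CpG within 500 bp were 62 in closed and 72 in open genes, and median G and C content was 60.5% and 61.1%.

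**Figure D3:**
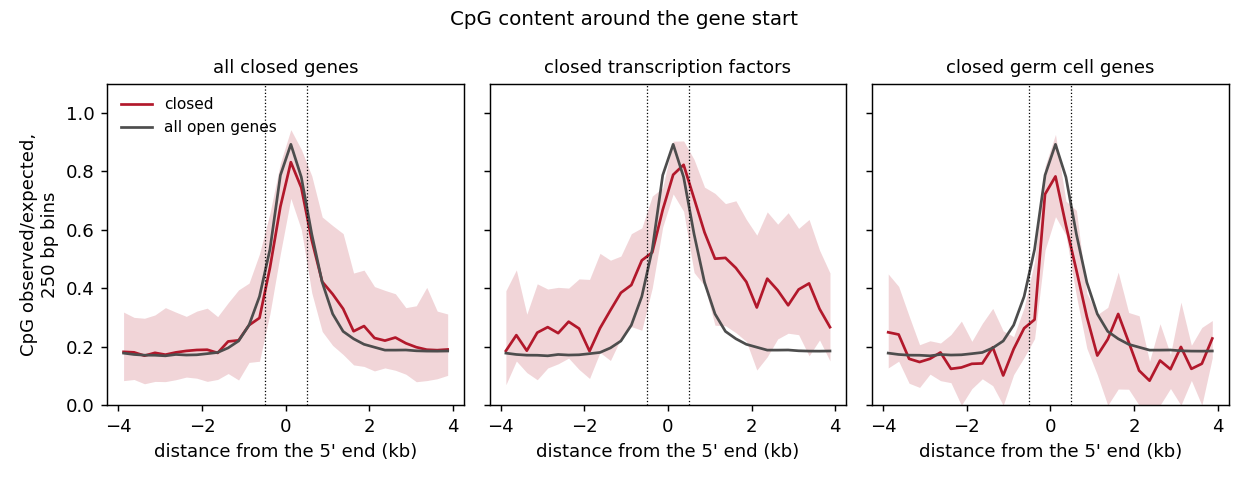
Median CpG observed/expected ratio in bins of 250 bp (y axis) by distance from the 5′ end in kb (x axis, downstream to the right) for closed genes (red, shaded between quartiles) and all open genes (grey). Dotted lines mark the 500 bp on either side that were used to choose the genes. At 1125 bp downstream the closed transcription factors had a median of 0.501 and the closed germ cell genes 0.170, beside 0.312 in all open genes. Open genes of the same classes are not drawn. Between 500 and 2000 bp their medians were above the closed ones, with 0.532 against 0.494 in transcription factors and 0.342 against 0.247 in germ cell genes.

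Distal accessibility near the closed genes was lower but far from absent. Distal peaks lie more than 1 kb from every TSS and were not used to choose the genes. Closed genes had a mean of 4.21 within 50 kb in replicate 1 and 5.85 in replicate 2, against 6.55 and 9.85 for open genes, which gives ratios of 0.642 and 0.594 (mean 0.618 ± 0.034 SD, n = 2 libraries). Among genes with unique sequence the ratios were 0.790 and 0.743, and the repeated members compared with all open genes gave 0.285 and 0.236. The part of repeated sequence in this ratio was not tested beyond these values. Among genes with no other protein-coding TSS within 50 kb, 105 closed genes had 3.08 and 4.37 and 2626 open genes had 5.78 and 8.88, with ratios of 0.532 and 0.492. The 163 CpG-rich genes with a peak in 1 library alone had 4.02 and 6.27, so low means were not particular to closed genes. All protein-coding genes had 5.48 and 8.14, and closed genes with unique sequence 5.20 and 7.35. By CpG class the closed over open ratios were 0.540 and 0.494 from 0.6 to 0.7, and between 0.655 and 0.870 in the higher classes.

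No distal peak lay within 50 kb of 53 closed genes in replicate 1 and 43 in replicate 2 (18.8% and 15.2%), against 3.30% and 1.52% of open genes. Among closed genes with unique sequence this was 8.08% and 4.04%. Syt10, a synaptotagmin, and Htr1f had none in either library. The nearest protein-coding neighbour was open in 58.5% of closed genes, or in 72.2% of those with unique sequence, against 83.5% of open genes. The closed mean was the lower one in each of 3 classes. Closed transcription factors had 5.39 and 7.88 distal peaks against 7.89 and 12.7 in open ones, closed neuronal genes 3.33 and 4.52 against 5.65 and 8.14, and closed germ cell genes 3.56 and 4.94 against 4.08 and 6.24. Of the 27 closed neuronal genes 11 had no distal peak in each library. Among these 11 were all 9 closed protocadherins, which have repeated sequence and lie in 1 cluster. They pull the closed neuronal mean down, and that class was not recomputed without them.

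**Figure D4:**
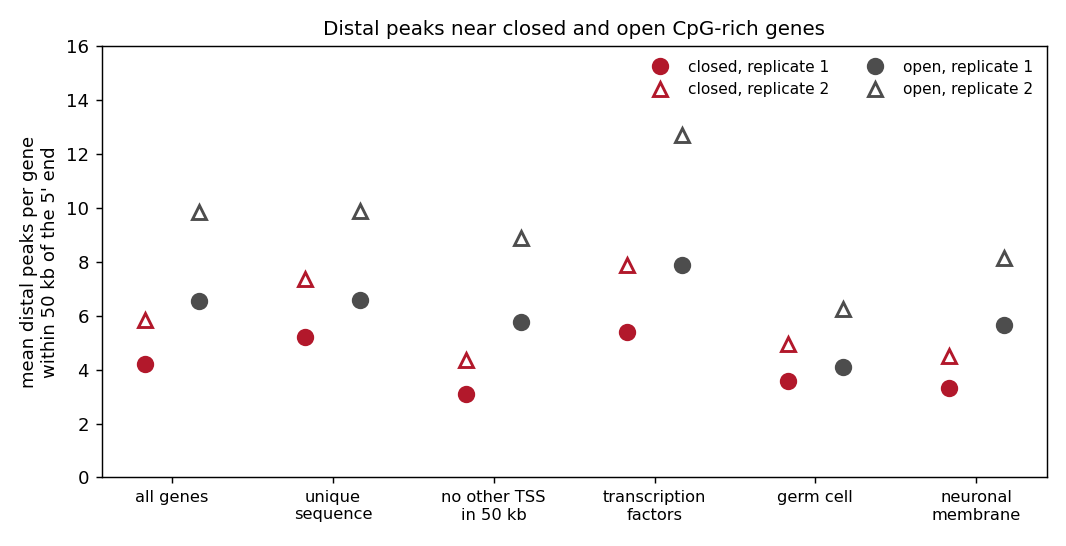
Mean number of distal peaks within 50 kb of the 5′ end (y axis) in closed genes (red, left of each pair) and open genes (grey) in replicate 1 (filled circles) and replicate 2 (open triangles), for all CpG-rich genes and 5 subsets. The closed mean lies below the open mean of the same library in all 6 sets, from 4.21 against 6.55 for all genes in replicate 1 to 3.08 against 5.78 for genes without another TSS within 50 kb. The closed neuronal set includes 9 protocadherins of 1 cluster with repeated sequence and 0 distal peaks.

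**Figure D5:**
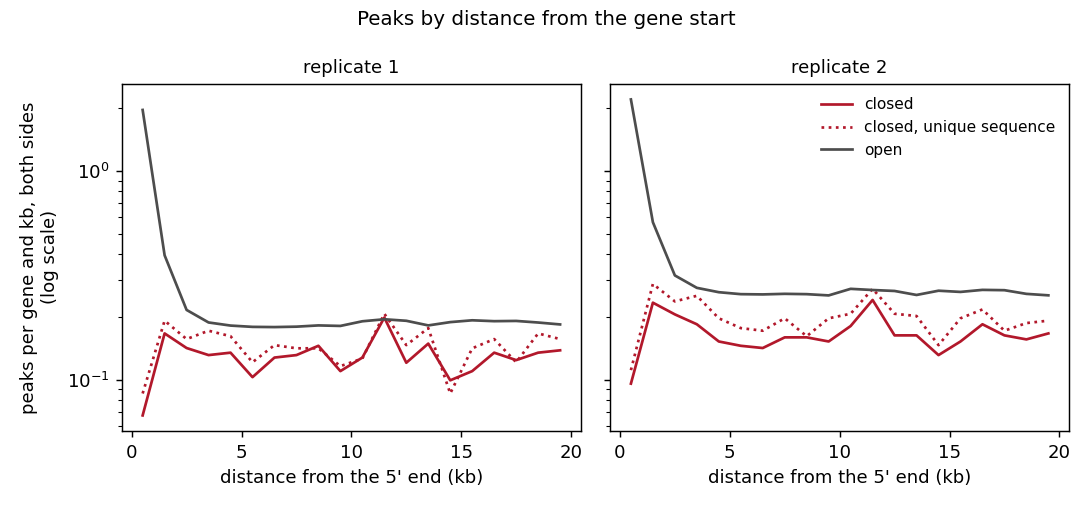
Peaks per gene and kb on both sides together (y axis, log scale) by distance from the 5′ end in kb (x axis), for closed genes (red), closed genes with unique sequence (red, dotted) and open genes (grey) in each library. The first kb follows from how the genes were chosen. From 1 to 2 kb closed genes had 0.167 and 0.234 peaks in replicates 1 and 2, against 0.395 and 0.569 in open genes.

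Some closed promoters sat in densely accessible surroundings. The members with the most distal peaks within 50 kb were Plk5, a divergent polo-like kinase gene, with 21 in replicate 1 and 24 in replicate 2, Sfi1 with 18 and 27, Hoxa13 with 13 and 27, Ppm1n with 17 and 22, and the neurofilament gene Nefh with 17 and 21. Next came 4933428G20Rik, Prtn3, 1700020N01Rik, Plppr3 and Foxl1, with means between 18.5 and 16.5. Prtn3, a neutrophil protease gene, and Plppr3 start 158 bp apart and so share most of these peaks. Most of the 10 have neighbours close by, at 94 to 38760 bp except for 1700020N01Rik, and a distal peak is not assigned to a gene by its distance. Hoxa13 had the widest gap between libraries of the 10.

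The highest shared distal peak near any closed gene had heights of 25.6 and 25.9 and lay at chr9:63109321-63109480 on mm10. It is 39.6 kb downstream of the 5′ end of Skor1, a neuronal corepressor gene, outside protein-coding genes. The next lay near Slc5a5, the thyroid iodide transporter (17.6 and 23.7, 26.9 kb downstream). Another was in an exon of Rtn2, 15.9 kb upstream of Ppm1n (17.97 and 21.50). Another was in an intron of Dbp, 13.3 kb upstream of Sec1 (19.09 and 18.89). The last of the 5 was near Bcan, the brain proteoglycan brevican (16.1 and 19.5, 13.1 kb downstream). These heights exceed the medians of 9.79 and 9.14 at open CpG-rich promoters.

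Closed members were unevenly spread over chromosomes. The X chromosome had 21 of 253 CpG-rich genes closed (8.30%, interval 5.21 to 12.4%), or 6.49% with unique sequence. Both libraries came from males, and the copy number of the X chromosome was not taken into account. Chromosome 14 had 24 of 360 (6.67%), but 6 of 311 with unique sequence (1.93%). Chromosome 18 had 16 of 265 (6.04%), but 5 of 240 with unique sequence (2.08%). Chromosome 16 had 1 of 325 (0.308%).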

How the data were processed

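DNase-seq of whole kidney gave 1 library from each of 2 mice. Per the file headers and the text deposited with them, each library's peaks, footprints and false discovery rates were made on mm10 from that library's filtered reads alone. The caller and aligner were not stated in what was used here. The peak height (signal) is the authors' deposited value, with no stated unit, and was used to describe and rank. The deposited q-value (FDR) column of the footprint list is 0.01 in every row, and the deposited FDR (q-value) list of single bases holds values below 0.05. Absolute depth is unknown.

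Members and gene lists were chosen with earlier results of these data known. A few genes were taken out of the list of Mage, Rhox, Tex13 and like families after values were seen, none of them closed, and that list still holds Mage genes that other tissues express. Promoters were taken from GENCODE M21 basic transcripts, and the annotated 5′ end of each gene was counted as a TSS as well, since without it 346 genes were closed, some of them with a peak at that end. Sequence was read from GRCm38.p6. A peak counted when any base of it lay within 500 bp of a TSS. Distal peaks had their midpoint more than 1 kb from every TSS and within 50 kb of the 5′ end. Uniqueness was counted over 36-base words in the 1001 bases around the 5′ end. Words were searched on both strands. The 250 bases printed leave out the part downstream of the 5′ end. Of the 51 gene lists, the text names up to 4 closed members with the highest CpG ratio and up to 2 open members with the highest peak, and over all members the 10 with the most distal peaks, the 5 with the highest shared distal peak, the longest runs and the genes at each threshold. Some genes that this rule picks are not reported here. The closed germ cell genes, the fifth NK gene and the closed genes of short lists beyond these were named after their values were seen. The E-box of germ cell genes was singled out after the values of 17 words were seen.

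With 1 group of 2 libraries no test was run. Libraries are given side by side, and shares carry exact (Clopper-Pearson) binomial intervals at 95%, which cover counting error only. The counting steps were tested on simulated data. Python 3.11.15, pandas 2.3.3, scipy 1.17.1 and bedtools 2.31.1 were used.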

Additional observations from a re-analysis of the deposited data

How the results depend on the processing

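The direction of the distal peak ratio, the CpG width and the ETS difference held under every alternative run. Of 99 recomputed values, 79 stayed within 1.5 times (counts) or within the spread between libraries or the counting interval, and 20 moved. Counts and the E-box share could only stay or move. A reversal was possible for the distal ratio, the CpG width and the ETS difference alone, and 0 of their values reversed. The 79 include 14 values of the E-box share, judged against its wide interval of 35.4 to 84.8%. The count of 282 closed genes was 488 with the shorter peak list, 140 with a CpG ratio of 0.7 or more and 455 with 0.5 or more. Closed transcription factors (41) numbered 74 with the shorter list, 22 at 0.7 and 48 to 67 when 1 library was left out. Closed germ cell genes of the first list (14) fell to 3 at 0.7. The mean ratio of distal peaks (0.618) was 0.671 with a promoter window of 250 bp, 0.570 with all annotated TSSs, 0.719 at a CpG ratio of 0.7, 0.767 with unique sequence, 0.654 by peak midpoint, 0.681 within 100 kb and 0.512 without another TSS within 50 kb. The difference in CpG ratio beyond 500 bp (0.034, closed minus open) was 0.011 with a 1 kb window, 8.19e-05 at a CpG ratio of 0.5 or more, where it all but vanished, and 0.0301 to 0.0499 when 1 library was left out. The ETS difference of -12.4 percentage points was -16.8 within 500 bp on either side. The alternative of basic TSSs alone, added after the data were seen, gave 0.656 for the distal ratio and 0.010 for the CpG width. The E-box share in closed germ cell genes (62.5%) ranged from 42.3 to 81.2% over alternatives added for it afterwards. The causes were not tested. Genes with a peak in a single library had median heights of 0.397 and 0.348, and the part of depth in the line between closed and weakly open was not tested. No paired analysis was possible because both libraries belong to 1 group.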
